A study of Rattus norvegicus with 16 samples.

Results

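The genes described here are 10 markers of astrocytes, measured in the diencephalon, which holds the thalamus and hypothalamus, of male Sprague-Dawley rats. They are 10 of the 14217 genes that the array's table names singly, and were *Slc1a2*, *Slc1a3*, *Glul*, *Gja1*, *Aqp4*, *Cldn10*, *Gfap*, *S100b*, *Aldh1l1* and *Gpr37l1*, taken as every probe set that the array's gene table assigns to one of these symbols. This gave 19 of 31042 probe sets that are not controls, of which 15, from 9 of the 10 genes, were bright enough to be tested. Each of 16 rats had its own Affymetrix array, 4 in each of 4 groups, and every rat began its diet at 5 weeks of age. The ZD diet held 0.6 mg zinc per kg and was eaten freely for 10 days, while PF rats received, in amounts matched to that intake, a diet holding 30 mg per kg. ZR rats had the low-zinc diet for 10 days and then 6 days on a fixed daily ration of 13 g of the zinc-sufficient diet. ZRPF rats were pair-fed the zinc-sufficient diet for 10 days and then had the same 6 days of ration. All 4 groups were offered 300 mM NaCl in preference tests. The submitters dropped 3 ZR rats and 1 ZRPF rat for their salt preference and chose animals of average weight, plasma zinc and preference for the arrays, so the spread given here is that of selected rats.

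Astrocytes clear glutamate from synapses, turn it into glutamine, buffer potassium and water, and pass metabolites to each other through gap junctions. *Slc1a3* (GLAST) and *Slc1a2* (GLT-1) take up glutamate, and *Glul* (glutamine synthetase) converts it. *Gja1* encodes the gap junction protein connexin 43, *Aqp4* the water channel of astrocyte endfeet and *Cldn10* a claudin. *Gfap* encodes the intermediate filament that marks reactive astrocytes, *S100b* a calcium-binding protein, *Aldh1l1* an enzyme of folate metabolism and *Gpr37l1* an orphan receptor. Some are not exclusive to astrocytes: *Glul* and *S100b* are also found in oligodendrocytes, and *Slc1a3* in tanycytes. In whole tissue, fewer cells of a type and less RNA per cell cannot be told apart.

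Values are log2 of the MAS5 signal, a summary of each probe set's brightness scaled to a common mean on every array, and levels are compared only within a probe set. Both probe sets of *Slc1a2* lay under the filter, a mean log2 signal of 7.35 over all arrays, with means of 6.94 (1369693_a_at) and 6.49 (1369694_at). For 1369693_a_at the values were 7.06, 6.85, 6.74 and 6.87 in PF, 7.03, 6.98, 6.82 and 7.03 in ZD, 6.93, 6.84, 7.09 and 7.27 in ZRPF, and 6.88, 6.84, 6.72 and 7.08 in ZR. All groups overlapped. The values of 1369694_at ran from 6.10 to 6.59 in PF, 6.25 to 6.76 in ZD, 6.18 to 6.97 in ZRPF and 6.08 to 7.07 in ZR, which overlapped too. GLT-1, a main glutamate transporter of astrocytes, was left untested because its signals fell under the filter. *Gja1* also had a pair of dim probe sets, 1369640_at at a mean of 6.36 and 1369639_at at 4.08, which were not tested. Of these, 1369640_at had 5.76 to 6.17 in ZRPF and 6.20 to 6.86 in ZR, groups that narrowly did not overlap. On the linear scale these were dim signals, 54.3 to 72.1 in ZRPF and 73.5 to 116 in ZR. ZR and ZRPF did not overlap in 2.98% of the tested probe sets, and the share among untested ones was not counted. The values were 6.29 to 6.94 in ZD and 5.65 to 6.81 in PF, which overlapped.

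Within the groups, some of the markers varied together from rat to rat. Over the 16 arrays, the deviations from the group mean of *S100b* and *Slc1a3* correlated at a Pearson r of 0.75 (Spearman rho 0.71), those of *Slc1a3* and *Gja1* at 0.69 (0.49), and those of *S100b* and *Gja1* at 0.64 (0.58). Without the 2 arrays farthest from the median of the former gene, r was 0.74, 0.47 and 0.56 in that order. Within the 8 arrays of the 10-day experiment r was 0.79, 0.70 and 0.49, and within the 8 of the 16-day experiment it was 0.79, 0.67 and 0.80. Of the 36 pairs of the 9 tested genes, 29 had r above 0, with a median of 0.27. Among 1500 tested genes drawn at random, 51.1% of pairs had r above 0, with a median of 0.009. Those genes were not matched to the markers for brightness. The probe sets used for *S100b*, *Slc1a3* and *Gja1* lay at percentiles 99.9, 99.1 and 99.9 of all probe sets. Whether other genes as bright vary together as much was not tested. Other cell types moved with the markers on some arrays and not on others, by the mean log2 signal of each list centred on 0. ZR 13 was lowest of its group for the markers (-0.073), neurons (-0.055) and oligodendrocytes (-0.192). ZD 8 was lowest of its group for the markers (-0.209) but highest for neurons (-0.017). Whether the covariation is particular to astrocyte genes was not tested. *Aldh1l1* stood apart: its r with the mean of the other 8 was -0.12, and with *Aqp4* it was -0.64 (rho -0.72). These correlations describe arrays that share tissue dissection and labelling, and no p-value is attached to them.

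**Figure D1:**
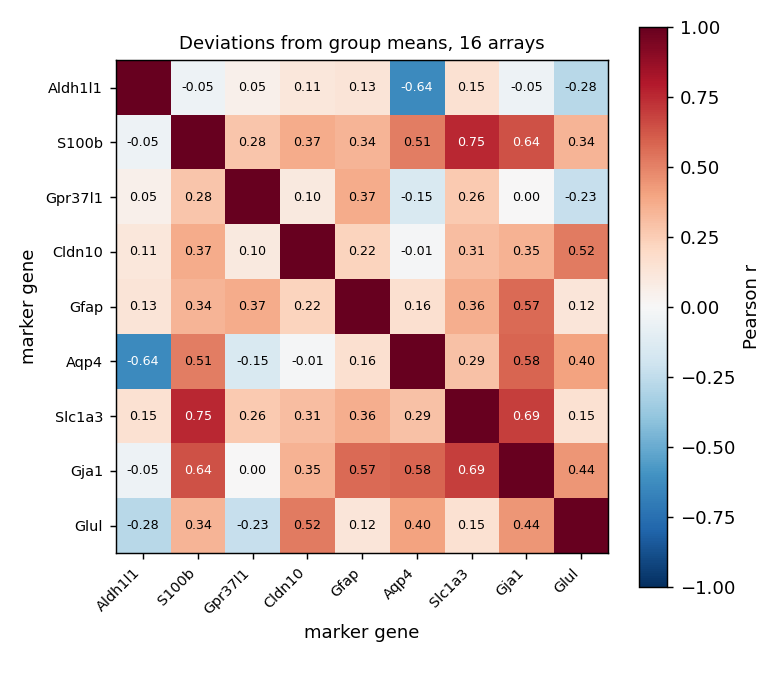
Pearson correlation between the 9 tested astrocyte markers (brightest probe set of each gene), computed on deviations of the log2 signal from the group mean over 16 arrays; colour and printed number give r. *S100b*, *Slc1a3* and *Gja1* form the block of highest values (0.64 to 0.75), and *Aldh1l1* with *Aqp4* is lowest at -0.64.

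The 250 bases before the start of these 3 covarying genes are shown to give their promoters, from RefSeq's GRCr8 table, in which all 10 genes were matched. For *Slc1a3* the outermost of 3 listed starts was used. Capitals mark the core letters of nuclear factor I sites, TTGGC or its reverse complement GCCAA. Nuclear factor I proteins are transcription factors of astrocyte development.

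*S100b* (chr20:12381082-12381331, minus strand): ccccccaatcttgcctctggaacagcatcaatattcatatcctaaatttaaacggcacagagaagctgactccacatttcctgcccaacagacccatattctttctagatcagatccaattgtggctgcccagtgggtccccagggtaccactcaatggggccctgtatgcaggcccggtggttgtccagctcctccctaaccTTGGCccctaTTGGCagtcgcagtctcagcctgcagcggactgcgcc

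*Slc1a3* (chr2:59557809-59558058, minus strand): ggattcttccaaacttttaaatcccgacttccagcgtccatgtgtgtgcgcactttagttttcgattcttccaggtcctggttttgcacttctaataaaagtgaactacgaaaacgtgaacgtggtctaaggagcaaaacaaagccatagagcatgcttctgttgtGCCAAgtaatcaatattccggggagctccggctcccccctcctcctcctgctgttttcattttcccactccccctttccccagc

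*Gja1* (chr20:36302314-36302563, plus strand): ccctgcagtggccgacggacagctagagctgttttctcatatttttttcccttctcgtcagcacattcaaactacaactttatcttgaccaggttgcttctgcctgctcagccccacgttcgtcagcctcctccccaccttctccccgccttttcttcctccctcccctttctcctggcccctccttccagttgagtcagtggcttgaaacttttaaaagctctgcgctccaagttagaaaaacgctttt

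The TTGGC letters, searched on both strands, occurred 2 times in the *S100b* window, 1 time in that of *Slc1a3* and 0 times in that of *Gja1*. They were found in 40.3% of all 33469 promoter windows of this length and in 7 of the 15 windows listed for the 10 markers. The STAT motif TTCNNNGAA, searched likewise, was in 7.67% of all windows and in 0 of these 15. The E-box letters CANNTG occurred 1 time in each of the 3 windows shown, in 12 of the 15 and in 65.5% of all windows, and letters of different motifs may overlap. These letters describe the windows and are not measured binding sites.

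Genes outside the marker set whose deviations were most like the markers' mean over the 16 arrays were *B2m* (r = 0.90), *Cd81* (0.89), *Rps3a* (0.88), *Apoe* (0.88), *Inf2* (0.87) and *Mt3* (0.86). *Apoe* carries lipids out of astrocytes, and *Mt3* is a zinc-binding metallothionein of the brain. These genes were ranked by r alone, and whether the likeness reflects astrocytes was not tested. For single markers, *Mobp*, a myelin gene, was among the closest to both *S100b* (0.93) and *Slc1a3* (0.92). *Rapgef4* and *Tmem47* (0.92 each) were closest to *Aqp4*, *Sync* (0.88) and *Zfp664* (0.86) to *Gja1*, and *Osbp2* (0.85) and *Ntan1* (0.84) to *Gfap*. *Zdhhc7* (0.94) and *Afg2a* (0.92) were closest to *Aldh1l1*, *Pmm2* (0.86) and *Lrp11* (0.85) to *Gpr37l1*, *Cmas* (0.82) and *Ctss* (0.80) to *Cldn10*, and *Tcp11l2* (0.82) and *Sv2b* (0.81) to *Glul*. The remaining closest genes were *Cox8a* (0.94) for *S100b* and *Itih3* (0.89) for *Slc1a3*.

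ZD against PF asks whether deficiency altered these markers when food intake was matched. No marker passed the threshold: the smallest adjusted p was 0.500, and the largest log2 change was 0.31 in size. The lowest change was that of *Glul*, the enzyme of glutamine synthesis, and the highest that of the receptor *Gpr37l1*. Of the 15 probe sets, 0 passed and 3 had an unadjusted p under 0.05, while 0% of all 15521 tested probe sets passed and 7.86% had an unadjusted p under 0.05. In 10 of the 15 the change was below 0, with a median of -0.08, against 47.5% and a median of 0.008 for all tested. None of the 15 had groups without overlap, which held for 4.19% of all.

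*Glul* was lower in ZD on average in all 3 of its probe sets. On 1367633_at the log2 signals were 11.09, 10.75, 10.89 and 11.04 in PF and 10.67, 10.33, 10.69 and 10.82 in ZD. Array ZD 3 was lowest, and the groups overlapped only in that ZD 9 lay above PF 2. The change was -0.31 ± 0.11 (SE, n = 4 per group; adjusted p = 0.500), a signal in ZD of 0.804 times that in PF. On 1386870_at it was -0.24 ± 0.10 (adjusted p = 0.581), and on 1367632_at -0.10 ± 0.08 (adjusted p = 0.795). The deviations of 1386870_at and 1367633_at correlated at 0.92 over the 16 arrays and those of 1367632_at with them at 0.31 and 0.53, so the 3 are not separate evidence.

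*Gpr37l1*, a receptor of astrocyte membranes, had log2 signals of 11.19, 11.18, 10.77 and 11.15 in PF and 11.47, 11.41, 10.98 and 11.42 in ZD. In each group 3 rats lay close together and 1 lay lower, PF 4 and ZD 8. The change was 0.25 ± 0.11 (95% interval 0.01 to 0.49, adjusted p = 0.607). With single arrays left out in turn it ran from 0.15 to 0.36 and never passed.

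The other markers differed by less. *Slc1a3*, the glutamate transporter, had 13.09, 12.79, 13.03 and 12.97 in PF and 13.15, 13.05, 12.82 and 12.88 in ZD on its brightest probe set, 1368565_at. Its groups covered the same range, and the 95% interval of the change was -0.17 to 0.17. For the calcium-binding *S100b* the interval was -0.18 to 0.17 and for the connexin *Gja1* -0.22 to 0.16. These intervals do not show that the groups were alike. *Gfap*, which marks reactive astrocytes, had 12.46, 12.46, 12.39 and 12.85 in PF and 12.50, 12.49, 12.32 and 12.53 in ZD. Only PF 6 stood apart, and the change was -0.08 ± 0.10. *Aqp4* stood at -0.15 ± 0.12, -0.22 ± 0.19 and -0.19 ± 0.24 on its 3 probe sets, *Aldh1l1* at -0.12 ± 0.10 and *Cldn10* at 0.11 ± 0.08. The 4 PF values of *Cldn10* lay within 10.41 to 10.44, while ZD ran from 10.38 to 10.75.

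**Figure D2:**
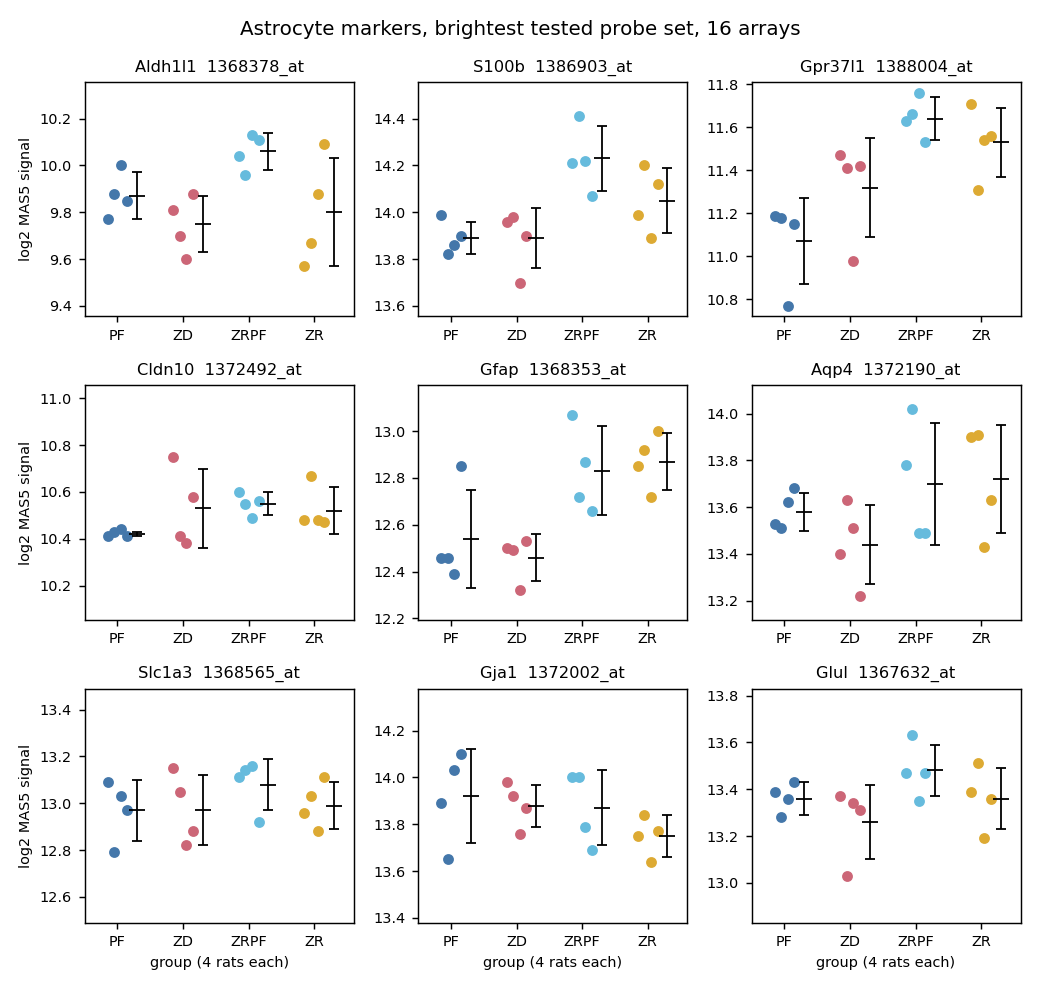
Log2 MAS5 signal of the brightest tested probe set of 9 astrocyte markers; each point is 1 rat, and the black bar is the mean ± SD of the 4 rats of a group. PF and ZD overlap in every panel, and ZRPF lies above PF without overlap for *S100b*, *Gpr37l1* and *Cldn10*; the vertical scale differs between panels.

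Whether the markers differed 6 days after zinc was given back was addressed by ZR against ZRPF. Again none passed (smallest adjusted p = 0.927), and the lowest changes were those of *Glul* and *Aldh1l1*. Of the 15 probe sets 0 passed, against 0.00644% of all tested, and 3 had an unadjusted p under 0.05, against 5.21%. The change was below 0 in 11 of 15, with a median of -0.11, where 51.7% of all tested were below 0 with a median of -0.005. Groups without overlap were found in 0 of 15 and in 2.98% of all.

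*Aldh1l1*, the folate enzyme often used as a general astrocyte label, had log2 signals of 10.04, 9.96, 10.13 and 10.11 in ZRPF and 9.57, 9.67, 9.88 and 10.09 in ZR. ZR 7 had the lowest value of all 16 arrays, and ZR 15 lay within the ZRPF range. The change was -0.26 ± 0.10 (adjusted p = 0.927), and it ran from -0.35 to -0.18 when single arrays were left out. *S100b* had 14.21, 14.41, 14.22 and 14.07 in ZRPF and 13.99, 14.20, 13.89 and 14.12 in ZR. The groups overlapped, ZRPF 6 being lowest among its controls, and the change was -0.18 ± 0.08 (adjusted p = 0.927). *Glul* stood at -0.28 ± 0.11 on 1367633_at, at -0.11 ± 0.10 on 1386870_at and at -0.12 ± 0.08 on 1367632_at, so all 3 were below 0 on average here too. *Gja1* stood at -0.12 ± 0.09, *Gpr37l1* at -0.11 ± 0.11, *Slc1a3* at -0.09 ± 0.08 on 1368565_at, -0.18 ± 0.16 on 1388064_a_at and 0.18 ± 0.13 on 1371130_at, and *Cldn10* at -0.03 ± 0.08. *Gfap* stood at 0.04 ± 0.10 and *Aqp4* at 0.02 ± 0.12 on 1372190_at, 0.24 ± 0.19 on 1387397_at and -0.17 ± 0.24 on 1368981_at.

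The difference between both changes, ZR against ZRPF minus ZD against PF, tests whether the markers responded unlike after recovery. For these markers it passed in 0 of 15 probe sets and over all tested probe sets in 0%, with 6.6% at an unadjusted p under 0.05. The only marker under that level was *Gpr37l1*, at -0.36 ± 0.16 (adjusted p = 0.747). *Slc1a3* stood at -0.36 ± 0.22 on 1388064_a_at (adjusted p = 0.775), *Aqp4* at 0.46 ± 0.27 on 1387397_at and at 0.17 ± 0.17 on 1372190_at, *S100b* at -0.17 ± 0.12, *Cldn10* at -0.14 ± 0.11, *Aldh1l1* at -0.13 ± 0.14 and *Gfap* at 0.12 ± 0.14. Under the alternatives tried, 906 values of these 15 probe sets in the 3 zinc comparisons gave 0 calls, and the smallest adjusted p among them was 0.213.

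**Figure D3:**
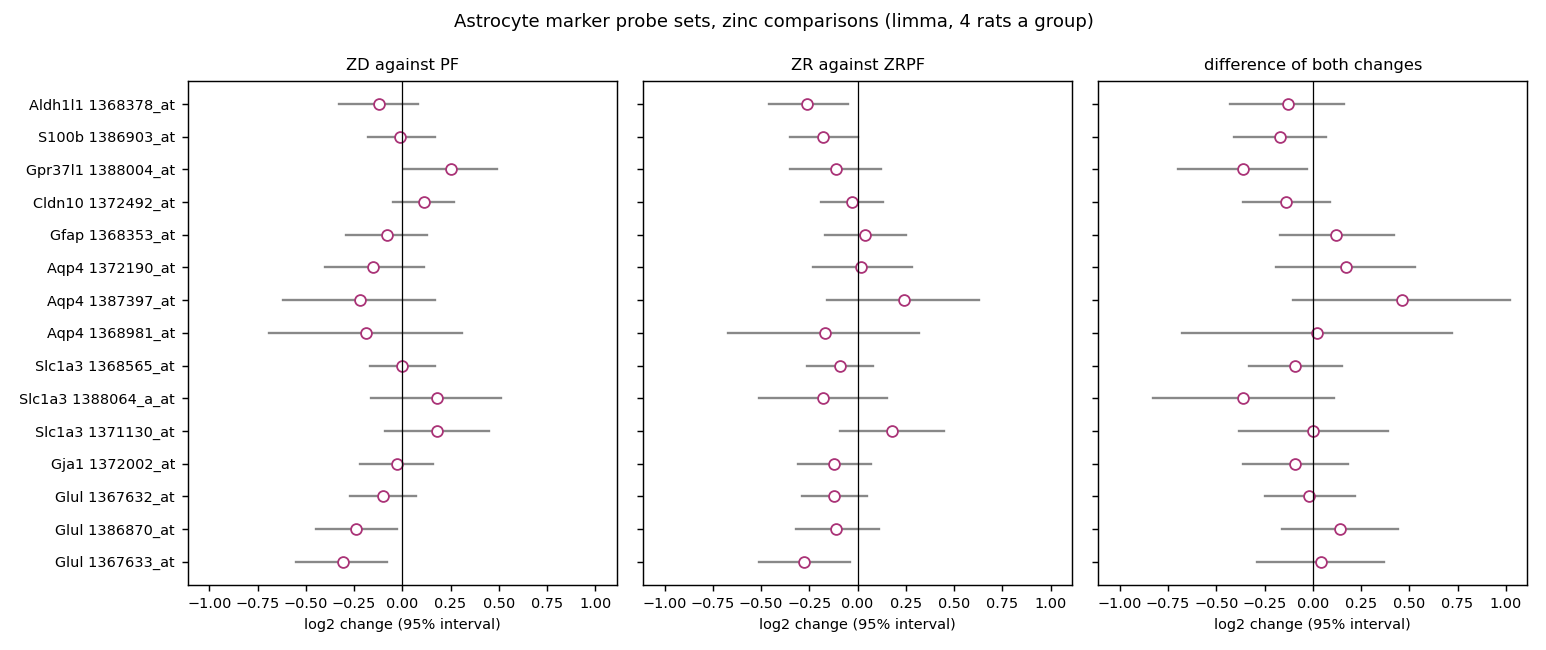
Log2 change of 15 astrocyte marker probe sets with its 95% interval, for ZD against PF, ZR against ZRPF and the difference of both changes (limma, 4 rats per group); open points did not pass an adjusted p of 0.05. All points are open, and the changes in the left and middle panels lie between -0.31 and 0.25.

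The 16-day and 10-day rats differed much more than the zinc groups. ZRPF against PF compares pair-fed rats of both experiments, and ZR against ZD recovered with deficient rats; neither pair shares an array with the other. Days on diet, age, the fixed ration and whatever else differed between the experiments cannot be told apart in these comparisons, nor can returned zinc in the latter. In ZRPF against PF, *Gpr37l1* and *S100b* rose, and in ZR against ZD *Gfap* rose. In both, 1 dim probe set of *Aqp4* and 1 of *Slc1a3* rose and a further one of *Slc1a3* fell, while the brightest probe sets of these genes did not pass. In ZRPF against PF 5 of 15 probe sets passed, 4 higher and 1 lower, where 15.7% of all tested passed, 9.5% higher and 6.15% lower. In ZR against ZD 4 of 15 passed, 3 higher and 1 lower, where 17.3% passed, 9.16% higher and 8.18% lower. These counts include *Aqp4* 1368981_at and *Slc1a3* 1371130_at in both, which reached the filter only through the experiment where they were higher, so they are not read as support. At an unadjusted p under 0.05 there were 6 and 5 of 15, against 30.1% and 31.3% of all. The change was below 0 in 5 and 4 of 15, against 51% and 51.1% of all. Groups without overlap were seen in 6 and 4 of 15, against 21.4% and 19.5% of all.

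*Gpr37l1* had 11.63, 11.66, 11.76 and 11.53 in ZRPF, each above all 4 PF rats, a change of 0.57 ± 0.11 (1.49-fold, adjusted p = 0.00207). In ZR it had 11.71, 11.31, 11.54 and 11.56, which overlapped ZD, and stood at 0.21 ± 0.11 (adjusted p = 0.217). *S100b* was likewise higher in 4 of 4 ZRPF rats than in any PF rat, by 0.33 ± 0.08 (1.26-fold, adjusted p = 0.00968), and stood at 0.16 ± 0.08 in ZR against ZD (adjusted p = 0.182). *Gfap* had 12.85, 12.92, 12.72 and 13.00 in ZR, all above the ZD rats, a change of 0.41 ± 0.10 (1.33-fold, adjusted p = 0.00911). In ZRPF it had 13.07, 12.72, 12.87 and 12.66, overlapping PF through PF 6, and stood at 0.29 ± 0.10 (adjusted p = 0.0617). Without PF 6 the *Gfap* change was 0.39 and passed (adjusted p = 0.00901), and without ZRPF 6 it was 0.34 and passed (adjusted p = 0.0423). That a gene passed in one of these comparisons and not in the other does not show a difference, since the test of that difference is the interaction above, which none passed.

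The glutamine, gap junction and folate genes did not pass in either comparison. *Glul* stood at 0.12 ± 0.08, -0.10 ± 0.10 and -0.22 ± 0.11 in ZRPF against PF on 1367632_at, 1386870_at and 1367633_at, so its probe sets did not share a sign. *Gja1* stood at -0.05 ± 0.09 and -0.13 ± 0.09, and *Aldh1l1* at 0.19 ± 0.10 and 0.05 ± 0.10 in ZRPF against PF and ZR against ZD. *Cldn10* had 10.60, 10.55, 10.49 and 10.56 in ZRPF, each above all PF rats, but its change of 0.13 ± 0.08 did not pass (adjusted p = 0.275). Over the brightest probe sets of the 9 genes, the mean per array, centred on 0 over all 16, was 0.02 to 0.20 in ZRPF and -0.14 to 0.01 in PF, and it was -0.07 to 0.09 in ZR and -0.21 to 0.01 in ZD.

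**Figure D4:**
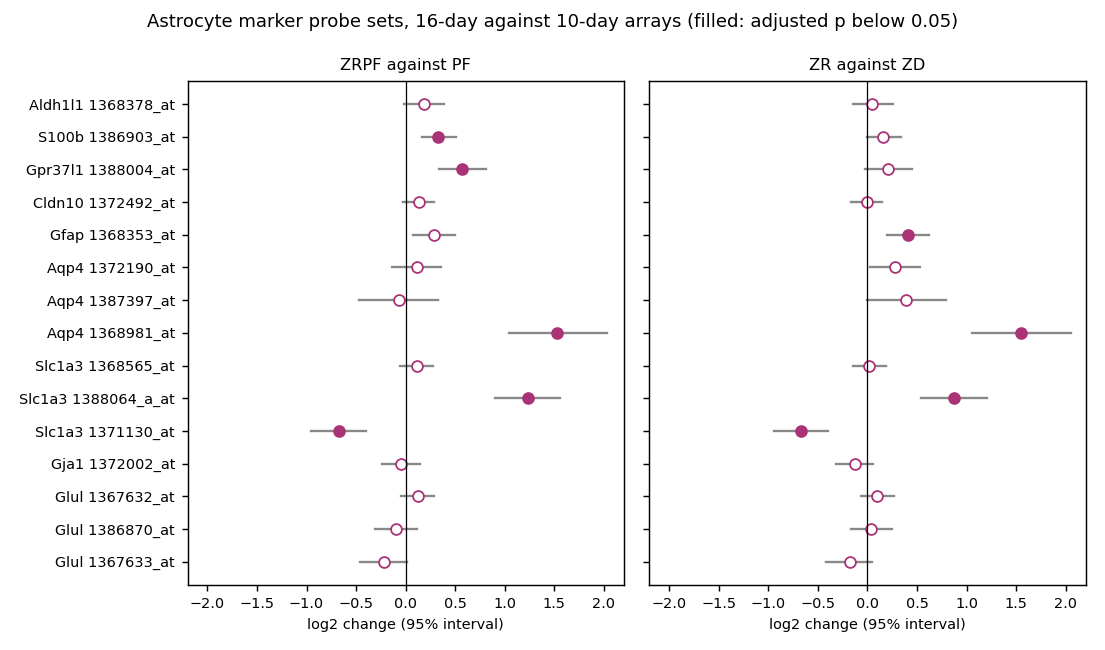
Log2 change with its 95% interval for the same 15 probe sets in ZRPF against PF and ZR against ZD; filled points passed an adjusted p of 0.05. The 1368981_at probe set of *Aqp4* (1.53 and 1.55) and 1388064_a_at of *Slc1a3* (1.23 and 0.87) lie far to the right, and 1371130_at of *Slc1a3* lies at -0.67 in both panels.

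Probe sets of the same gene gave unlike changes between the experiments. For *Slc1a3*, 1388064_a_at had 8.19, 7.61, 7.90 and 7.68 in PF, 8.24, 8.12, 8.15 and 7.57 in ZD, 9.12, 9.19, 8.75 and 9.24 in ZRPF, and 8.72, 8.85, 8.88 and 9.13 in ZR. All 8 rats of the 16-day experiment lay above all 8 of the 10-day experiment, and the changes were 1.23 ± 0.16 (2.35-fold, adjusted p = 4.83e-05) in ZRPF against PF and 0.87 ± 0.16 (1.83-fold, adjusted p = 0.00115) in ZR against ZD. The probe set 1371130_at had 7.72, 7.51, 7.52 and 7.90 in PF, 7.91, 7.67, 7.90 and 7.89 in ZD, 7.15, 6.86, 7.07 and 6.88 in ZRPF, and 7.39, 7.05, 6.99 and 7.25 in ZR. Here all 16-day rats lay below all 10-day rats, with a change of -0.67 ± 0.13 in both comparisons. The brightest probe set, 1368565_at, stood at 0.11 ± 0.08 and 0.02 ± 0.08 and did not pass. The fall on 1371130_at is a description only, because of how it reached the filter (given below). No direction is therefore given for the gene as a whole. Within groups, the deviations of 1388064_a_at and 1371130_at correlated at -0.15, and those of 1368565_at with them at 0.40 and 0.21.

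*Aqp4*, the water channel, showed the same kind of split without a fall. On 1368981_at the values were 7.39, 7.33, 7.04 and 7.06 in PF, 7.38, 7.61, 6.50 and 6.56 in ZD, 8.87, 9.29, 8.37 and 8.42 in ZRPF, and 8.54, 8.84, 8.26 and 8.62 in ZR. All 16-day rats were above all 10-day rats, by 1.53 ± 0.24 and 1.55 ± 0.24. The brighter 1372190_at stood at 0.11 ± 0.12 and 0.28 ± 0.12, and 1387397_at at -0.07 ± 0.19 and 0.39 ± 0.19, none of which passed. Among the 3 probe sets, deviations within groups correlated at 0.43 to 0.76. Both of these dim probe sets reached the filter through the experiment in which they were higher: the group means of 1368981_at were 7.20 and 7.01 in the 10-day rats, and those of 1371130_at 6.99 and 7.17 in the 16-day rats, all under 7.35. Their calls are therefore a description and support nothing further. With no filter, so that all 31042 probe sets were tested, the adjusted p in ZRPF against PF and ZR against ZD was 0.000473 and 0.00049 for *Aqp4* 1368981_at and 0.00417 and 0.00454 for *Slc1a3* 1371130_at.

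Of 1984 genes with at least 2 tested probe sets, 683 had a call in ZRPF against PF and 768 in ZR against ZD. Calls in opposite directions within a gene were found in 24 (1.21% of the 1984) and 23 (1.16%), in that order. *Slc1a3* was counted in both, but only through 1371130_at, which reached the filter through the experiment where it was higher. Its place in these counts is therefore a description and supports nothing further. The changes of a gene's probe sets lay at least 1 apart for 81 genes (4.08%) in ZRPF against PF, with a median distance of 0.22. The distances were 1.91 for *Slc1a3*, 1.6 for *Aqp4* and 0.34 for *Glul*. Those of *Slc1a3* and *Aqp4* rest on the dim probe sets described above and are not read as support. Genes were not matched for their number of probe sets. What the probe sets recognise along each transcript was not analysed here.

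**Figure D5:**
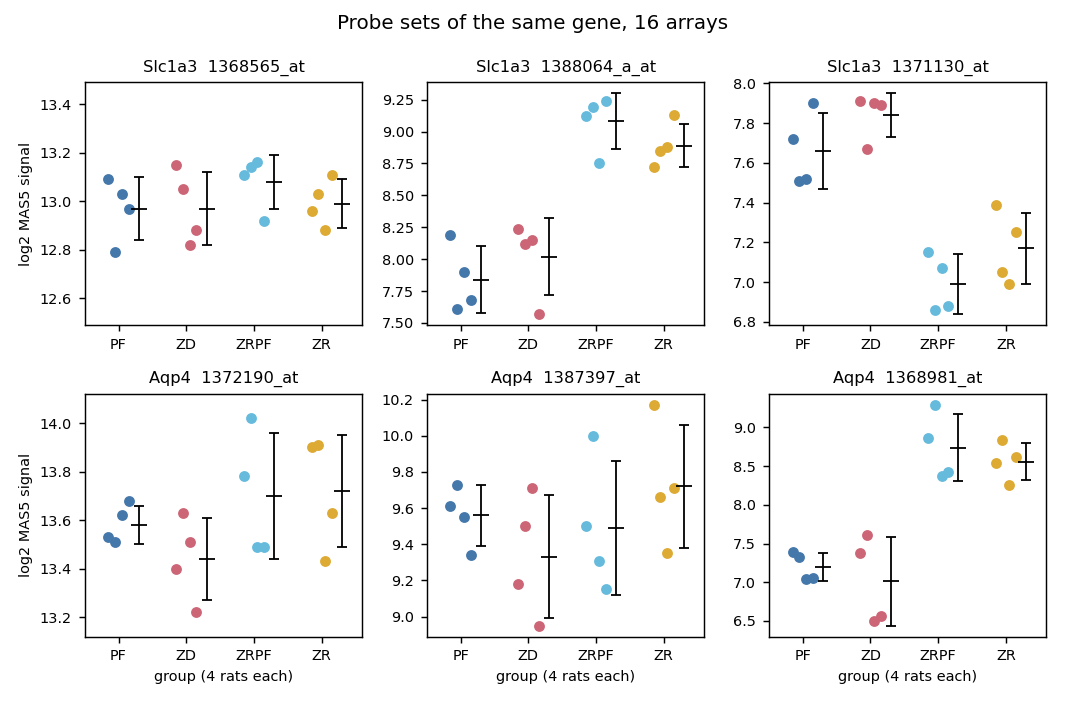
Log2 MAS5 signal on the 3 tested probe sets of *Slc1a3* (upper row) and of *Aqp4* (lower row); each point is 1 rat and the black bar the mean ± SD of a group of 4. The 16-day groups ZRPF and ZR lie above the 10-day groups on 1388064_a_at and 1368981_at, below them on 1371130_at, and overlap them on the other 3.

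Measures of the RNA moved with the experiment. The log2 ratio of 3 prime to 5 prime signal, which rises as labelled RNA gets shorter, was 1.37 to 1.73 for the beta-actin control in the 8 arrays of the 10-day rats and 2.05 to 2.48 in those of the 16-day rats. For the Gapdh control it was 0.05 to 0.15 and 0.15 to 0.30. With the Gapdh ratio as a covariate, 3 of 15 marker probe sets passed in ZRPF against PF (771 of all tested) and 2 in ZR against ZD (786), and *S100b* (0.15, adjusted p = 0.403), *Gpr37l1* (0.42, adjusted p = 0.113) and, in ZR against ZD, *Gfap* (0.36, adjusted p = 0.162) and *Slc1a3* 1371130_at (-0.63, adjusted p = 0.0642) no longer did. The Gapdh ratio did not overlap within these comparisons, at 0.10 to 0.14 in PF and 0.15 to 0.30 in ZRPF. It was 0.05 to 0.15 in ZD and 0.20 to 0.29 in ZR. The beta-actin ratio does not overlap between the experiments and cannot be told apart from them. With it as a covariate, 0 marker probe sets passed in either comparison. Neither covariate fit can therefore separate RNA length from the experiment. Hypothalamic genes also stood higher in the 16-day rats, in 8 of 9 tested genes against PF and 9 of 9 against ZD, with 4 passing as higher in each, where 9.25% and 8.16% of all genes passed as higher and 51.5% and 54.1% stood below 0. Their summed signal was 25491 to 35048 in the 10-day and 37692 to 45251 in the 16-day rats. The part of these hypothalamic genes' shift in the markers' differences was not tested.

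Other astrocyte genes did not pass in the zinc comparisons either. Of 63 further astrocyte genes in 6 lists, 46 were tested, and 0 passed in ZD against PF, ZR against ZRPF or the interaction, where 0%, 0.0108% and 0% of 9278 genes passed. In the interaction 29 of 46 (63%) were below 0, against 56.5% of all genes. Their changes were below 0 in 20 of 46 (43.5%) in ZD against PF, where 44.4% of all genes were, and in 30 of 46 (65.2%) in ZR against ZRPF, where 53.1% were, with medians of 0.023 and -0.066. In ZRPF against PF 15 of 46 (32.6%) passed, 14 higher and 1 lower, where 15.4% of all genes passed (9.25% higher, 6.13% lower). In ZR against ZD 6 of these 46 (13%) passed, all higher, where 16.6% did (8.16% higher, 8.42% lower). The change was below 0 in 11 (23.9%) and 14 (30.4%) of 46, against 51.5% and 54.1% of all genes. Among the 15 were *Atp1b2*, a sodium pump subunit of astrocytes, at 0.98 ± 0.07 (adjusted p = 7.72e-08), and *Hepacam*, an adhesion protein of endfeet, at 0.67 ± 0.13 (adjusted p = 0.00143), both named after their values were seen. *Rfx4*, a transcription factor, was the 1 lower gene, at -0.33 ± 0.11 (adjusted p = 0.0496), and was also picked after its value was seen.

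By function, all 11 tested genes of secreted proteins stood below 0 in ZR against ZRPF, where 53.1% of all genes did. Their changes ran from -0.25 to -0.05 with a median of -0.14, and 0 passed. Their mean per array, centred on 0, was -0.17 to 0.07 in ZR and 0.06 to 0.19 in ZRPF, which overlapped. The genes share arrays, so the 11 are not separate evidence. The 2 of smallest p were *Apoe* (-0.17 ± 0.08) and *Clu* (-0.13 ± 0.07), lipid carriers. In ZRPF against PF 5 of these 11 passed, all higher, where 9.25% of all genes passed as higher. Metabolic genes stood below 0 in 7 of 8 after recovery, led by the glycolytic *Aldoc* (-0.16 ± 0.07) and the detoxifying *Mgst1* (-0.19 ± 0.09), and 4 of 8 passed as higher in ZRPF against PF, against the same 9.25%. Channels and junctions stood below 0 in 4 of 7 after recovery, with *Gjb6* (connexin 30) at -0.30 ± 0.14 and *Mlc1* at -0.13 ± 0.08. Amino acid transporters stood below 0 in 2 of 5, with *Slc7a11* at 0.13 ± 0.14 and *Slc1a4* at 0.10 ± 0.11. Receptors and surface proteins stood below 0 in 2 of 8, with *Ntsr2* at -0.21 ± 0.13 and *Cspg5* at 0.16 ± 0.11. Transcription factors stood below 0 in 4 of 7, with *Sox2* at 0.27 ± 0.08 and *Zbtb20* at -0.20 ± 0.09. In ZR against ZRPF the adjusted p was 0.927 or more for every gene named by function here.

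Of 28 genes of reactive astrocytes, which injury induces, 24 were on the array and 9 were bright enough to be tested. Of these, 0 passed in either zinc comparison. In ZD against PF 8 of 9 stood above 0, with a median of 0.24, and in ZR against ZRPF 7 of 9 stood below 0, with a median of -0.05. In the interaction 9 of 9 stood below 0, with a median of -0.24, and 0 passed. Of all genes, 44.4%, 53.1% and 56.5% stood below 0 in these comparisons, in that order. *Vim*, a filament protein shared by reactive astrocytes, ependyma, tanycytes and vessels, stood at 0.40 ± 0.10 (adjusted p = 0.254) in ZD against PF, at -0.34 ± 0.10 (adjusted p = 0.927) in ZR against ZRPF and at -0.74 ± 0.14 (adjusted p = 0.375) in the interaction. *Srgn*, a proteoglycan of blood cells and vessels, stood at 0.20 ± 0.07 in ZD against PF and at 0.18 ± 0.07 after recovery. Between the experiments, 2 of 9 passed in ZRPF against PF, *Vim* higher (0.42 ± 0.10) and *Srgn* lower (-0.40 ± 0.07), where 15.4% of all genes passed. In ZR against ZD 3 of 9 passed, all lower, where 8.42% of all genes passed as lower: *Vim* (-0.32 ± 0.10), *Srgn* (-0.42 ± 0.07) and *S100a10* (-0.27 ± 0.08), the last named after its value was seen. Several genes of this list are also expressed by vessels and meninges. Markers of meninges and mural cells stood above 0 in ZD in 8 of 8 tested genes, with summed signals of 3971 to 4771 in PF and 4384 to 6683 in ZD, and endothelial markers in 7 of 9, with 6501 to 7657 and 7395 to 8141. Choroid plexus genes stood above 0 in 6 of 6, with 1897 to 3014 in PF and 2790 to 12992 in ZD. In ZR against ZD, markers of meninges and mural cells stood below 0 in 8 of 8, and 5 passed as lower. Endothelial markers stood below 0 in 8 of 9 and choroid plexus genes in 4 of 6, with 0 passing in either. Of all genes, 54.1% stood below 0 and 8.42% passed as lower there. The part of these tissues in the reactive genes was not tested. *Gfap* itself stood at -0.08 ± 0.10 in ZD against PF, a change smaller than its standard error. With single arrays left out it ran from -0.13 to 0.02. Of 7 astrocyte zinc genes, 5 were on the array and 4 were tested. None of them passed in a zinc comparison, with *Mt3* at -0.16 ± 0.10 and *Mt2A* at -0.08 ± 0.19 after recovery.

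No marker of other cell types passed in ZD against PF or in ZR against ZRPF. Neuron markers had medians of -0.08 in ZD against PF and -0.02 in ZR against ZRPF over 10 tested genes, and oligodendrocyte markers -0.03 and -0.04 over 10. For oligodendrocyte precursors (4 tested) the medians were 0 and -0.10, for microglia (8) 0.20 and -0.03, for endothelium (9) 0.19 and 0.04, for ependyma and tanycytes (6) 0.17 and -0.08, and for thalamus (10) -0.15 and 0.01. Hypothalamic genes (9) had 0.02 and -0.03. Choroid plexus genes (6) had 0.49 and -0.27, and those of meninges and mural cells (8) 0.34 and -0.16. The astrocyte markers had -0.03 and -0.11 over 9 genes, and after recovery choroid plexus and meninges and mural cells were the 2 lists here with a lower median.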

How the data were processed

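One Affymetrix rat expression array was used per rat, on RNA amplified from the 3 prime end. The deposited values are intensities on a linear scale, made by the authors with MAS5, per the labels and the submitters' processing notes (version, scaling target and genome build are not given in the sources used here). The mean without the highest and lowest 2% of probe sets was 500.13 to 500.15 in every array, the median signal 157 to 173, and arrays of a group correlated at 0.974 to 0.987. The number of arrays limits the precision.

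Signals were taken as log2 with no offset and no further normalization. The 57 controls were left out, and those whose mean log2 signal reached the median of such means (7.35, or 163 on the linear scale) were tested. Genes came from the platform table joined by gene identifier to RefSeq: 20826 probe sets had 1 gene, 436 several and 9780 none. All 4 groups entered one limma fit with eBayes and its trend option (limma 3.58.1, R 4.3.3); p-values are two-sided, adjusted by Benjamini-Hochberg over the 15521 tested, with a threshold of 0.05. Where counts are by gene, the brightest tested probe set stands for it. Rats were separate animals and numbers were not used as pairs. On simulated data, simulated log2 changes of 0.5, 1 and 2 were recovered in 33 of 50, 98 of 100 and 50 of 50 probe sets in ZD against PF, with 9 false calls. That noise was independent between probe sets, and many changes were planted together, which makes the adjusted threshold easier to pass. The counts check the fit and do not give the power of the real ZD against PF, where 0 probe sets passed.

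The members and lists were chosen with earlier results of these data known. All probe sets of the 10 members are reported, with per list of further genes the 2 of smallest p in ZR against ZRPF, and genes most like the members by correlation. Alternatives were other normalization, filters, an offset, no trend, array weights, RNA integrity covariates, own arrays only, arrays left out and a replicate block.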

Additional observations from a re-analysis of the deposited data

Results flagged for a closer look

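Among the 76 combinations of a marker probe set and a group, 8 held a rat far from the other 3 by Dixon's criterion, which chance gives in about 1 of 20 groups. *Gpr37l1* had 10.77 in PF 4, against 11.15 to 11.19 in the other PF rats, and 10.98 in ZD 8, against 11.41 to 11.47. *Gfap* had 12.85 in PF 6, against 12.39 to 12.46. *Cldn10* had 10.67 in ZR 10, against 10.47 to 10.48. *Glul* (1367632_at) had 13.03 in ZD 3, against 13.31 to 13.37. *Slc1a3* had 7.57 in ZD 9 on 1388064_a_at, against 8.12 to 8.24, and 7.67 in ZD 3 on 1371130_at, against 7.89 to 7.91. *Slc1a2* (1369694_at, not tested) had 6.25 in ZD 8, against 6.68 to 6.76.

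Array ZD 8 exceeded its group mean in 2 of 9 marker genes, as did ZRPF 6 and ZR 13, whereas ZD 2 did in 8 of 9.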

How the results depend on the processing

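For the 75 changes of marker probe sets (15 in 5 comparisons), 1442 of 1470 values under the alternatives kept their side of the threshold and their sign, or changed sign only where the change was smaller than its standard error (60 values). No marker passed in a zinc comparison under any alternative run. Over all probe sets, ZD against PF gave 0 calls, and 0 to 3 with single arrays left out (3 without ZD 8); the interaction gave 0 to 1, and ZR against ZRPF 0 to 9 (9 without ZRPF 6). The 1 call of ZR against ZRPF became 0 with quantile normalization, no filter, only the 10348 brightest probe sets tested, no intensity trend, its own 8 arrays, or either integrity covariate.

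In ZRPF against PF, calls ran from 1681 to 2264 (markers 5 to 6) with single arrays left out, and in ZR against ZD from 2028 to 2588 (markers 4 to 5). With the 10348 brightest only, which drops the dim probe sets of *Slc1a3* and *Aqp4*, 2 and 1 markers passed. Of all 10348, 1864 passed in ZRPF against PF and 2074 in ZR against ZD. With the Gapdh ratio as covariate there were 771 calls (3 markers) and 786 (2 markers), *Slc1a3* 1368565_at turned to -0.04 in ZRPF against PF, and *S100b* to -0.04 in ZR against ZD. With the beta-actin ratio, added after seeing the data, 7 and 17 calls and 0 and 0 markers were left. In ZRPF against PF *Aldh1l1* turned to -0.04, *Cldn10* to -0.01, *Gfap* to -0.16 and *Slc1a3* 1368565_at to -0.25, and in ZR against ZD *S100b* turned to 0.00 and *Gfap* to -0.01; *Aqp4* 1368981_at stood at 0.88 and 0.94, without a call. *Gja1* 1372002_at moved to -0.54 and -0.59, and *Slc1a3* 1368565_at to -0.31 in ZR against ZD, also without a call. Why these values moved was not tested, but the beta-actin ratio does not overlap between the experiments. Nor does the Gapdh ratio overlap between PF and ZRPF or between ZD and ZR.

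PF and ZRPF share the numbers 2, 4 and 6, on different rats: their deviations correlated at 0.020 to 0.079, those of unlike numbers at -0.096 to 0.078. With a replicate block on these 6 arrays there were 1085 calls and 3 markers (*S100b*, adjusted p = 0.0587, and *Slc1a3* 1371130_at, 0.0621, did not pass), and without the block the same 6 arrays, a fit added after seeing the data, gave 1305 and 5.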
